A study of Mus musculus with 15 samples.

Results

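The genes described here are 46 mouse genes of mitosis and chromosome segregation, chosen by name for what their products do in dividing cells. The choice was made with earlier results of these data known. They were found by matching Ensembl gene identifiers to symbols, and all 46 were measured in both gene tables, among 13501 genes in the table of the overexpression lines and 13669 in that of the hairpin lines. At the transcript level they were covered by 117 of 30220 listed transcripts.

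The cells were 6DT1, a metastatic mouse mammary cancer cell line, and RNA-seq was made from 15 libraries of 5 lentivirally transduced lines with 3 libraries each. OE cells carried a Smarcd1 cDNA with a Myc tag at its C-terminus, driven by a pol2 promoter, and EV cells carried the empty vector; both were kept in blasticidin. KD4 and KD6 cells carried hairpins against Smarcd1, which encodes a subunit of the SWI/SNF chromatin remodelling complex, and shScr cells carried a scrambled hairpin; these 3 lines were kept in puromycin. The lines were drug-selected populations, grown untreated as monolayers in DMEM with 10% serum and harvested 24 h after seeding at 70% confluence, and the replicates of a line came from different passages on subsequent days. No line was described as a single clone. Because the lines are bulk cultures, fewer dividing cells and less of a transcript in each dividing cell cannot be told apart.

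Cells enter mitosis when cyclin-dependent kinase 1, bound to cyclin A or B, phosphorylates many substrates. The spindle checkpoint then holds the anaphase-promoting complex inactive until every kinetochore is attached to microtubules, after which separase cuts cohesin and the cell divides. Transcripts of most of these genes accumulate in G2 and M phase, and many of their promoters carry a cell cycle homology region (CHR), bound by the MuvB complex with B-Myb and FOXM1, and CCAAT boxes, bound by NF-Y. For this reason the set is widely used as a readout of how many cells in a culture are dividing.

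The letters of these elements were present at many of the genes. RefSeq promoter windows of 300 bases on GRCm38.p6, from 250 bases before to 50 bases after the start of transcription, were available for 37 of the 46 genes, and the windows of 3 genes came in 2 versions. Both strands were searched for TTTGAA, the CHR letters, and for CCAAT, matches of which can share at most 1 end base. TTTGAA was found at 26 of the 37 genes (70.3%), against 20.2% of the 27025 genes in the table and 17.9% of its 32851 windows. CCAAT was found at 27 of the 37 (73.0%), against 41.1% of all genes and 37.4% of all windows. Both were present at 23 of the 37 (62.2%), against 7.97% of all genes. Within 50 bases on either side of the start, TTTGAA was found at 24 of the 37 genes (64.9%), against 5.72% of all genes. A match of letters is a description of the window and not evidence of binding.

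Stretches of 5 of these windows are shown because they belong to genes named in the comparisons that follow, or, for Cdk1, to the kinase on which the set centres. They run 5′ to 3′ on the strand of the gene, positions are counted from the start of transcription (1 is the first transcribed base), and capitals mark TTTGAA and CCAAT or their reverse complements. The Ccnb2 stretch (chr9:70421543-70421644, minus strand, −90 to 12) held CCAAT at −87, −54 and −21 and TTTGAA at 5. The Racgap1 stretch (chr15:99651644-99651671, minus strand, −15 to 13) held a reversed CCAAT at −12 and TTTGAA at 6. The Ube2c stretch (chr2:164769838-164769908, plus strand, −91 to −21) held reversed copies of CCAAT at −88 and −57 and of TTTGAA at −29. The Prc1 stretch (chr7:80294411-80294454, plus strand, −40 to 4) held CCAAT at −37 and TTTGAA at −5. The Cdk1 stretch (chr10:69352919-69352995, minus strand, −83 to −7) held TTTGAA at −71 and −15 and reversed copies of CCAAT at −80 and −48.
Ccnb2: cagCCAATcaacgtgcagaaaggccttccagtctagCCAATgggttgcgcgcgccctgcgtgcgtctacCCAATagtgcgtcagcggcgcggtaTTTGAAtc
Racgap1: gtgATTGGctggtgcgtgatTTTGAAcc
Ube2c: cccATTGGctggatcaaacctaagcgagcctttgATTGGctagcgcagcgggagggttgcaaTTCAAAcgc
Prc1: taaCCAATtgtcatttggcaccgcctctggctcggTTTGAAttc
Cdk1: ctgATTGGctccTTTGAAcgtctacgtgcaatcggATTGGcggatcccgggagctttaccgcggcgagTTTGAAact

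**Figure D1:**
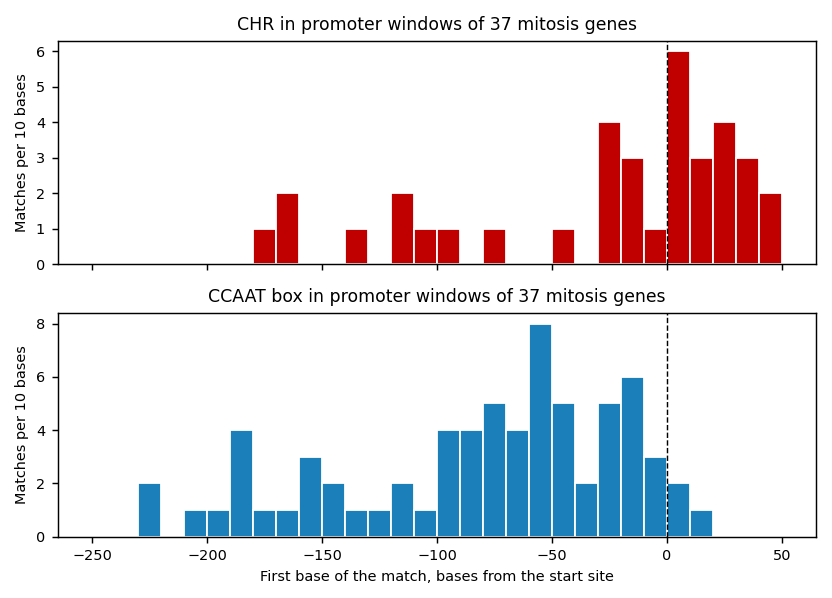
Number of matches to the CHR letters (upper panel) and to the CCAAT box (lower panel) in bins of 10 bases, against the position of the first base of the match relative to the start of transcription (dashed line), over the promoter windows of 37 mitosis genes. CHR matches are most frequent close to the start, and CCAAT matches lie mostly upstream of it.

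The deposited values are CPM, that is reads of a gene scaled to a common library total, and read counts were not analysed here, so the depth of a library is unknown and no counting interval can be given. Listed gene values added up to between 894250 and 923092 CPM a library. EV replicate 1 stood apart from the other 5 OE and EV libraries on the first principal component (23.7, against −11.3 to −1.07, with 40.2% of the variance), and the main counts are given with and without it. Of 14 mammary epithelial markers 6 were listed, with keratin 8 and keratin 18 at 315 to 429 CPM by line mean and Epcam and Cdh1 not listed, and their summed level was 705 to 995 CPM in every library. Of 31 markers of myoepithelial cells, fibroblasts, immune cells, endothelium and adipocytes, 5 were listed in the OE and EV table and 2 in the hairpin table, with no adipocyte marker in either. Cd68, a macrophage and lysosome marker, had line means of 62.7 CPM (EV), 56.2 (OE), 35.0 (shScr), 30.2 (KD4) and 38.4 (KD6), and Pdgfra, a fibroblast marker, had 3.38, 3.73, 3.14, 7.51 and 4.75 CPM in the same order. Vwf, an endothelial marker, had means of 22.4 (EV) and 23.1 (OE), with Acta2 and Kdr at 0.991 to 1.41 CPM. The part of these markers in the results was not tested.

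Smarcd1 itself was followed first. It stood at 31.9, 27.1 and 29.9 CPM in EV and at 70.4, 65.0 and 61.7 CPM in OE, a difference of 1.12 ± 0.07 (SE) on the log2(CPM + 1) scale, which is used for every fold change here (limma, adjusted p = 0.00355). The call was lost without EV replicate 3 (adjusted p = 0.052) or OE replicate 2 (0.0533), and without EV replicate 1 the change was 1.17 ± 0.07 (0.00214). In shScr it stood at 14.5, 16.5 and 15 CPM, in KD4 at 9.07, 9.05 and 9.27 CPM, and in KD6 at 13.2, 14.8 and 15.1 CPM. The KD4 libraries lay below all shScr libraries (log2 change −0.69 ± 0.08, adjusted p = 0.000873), whereas the libraries labelled KD6 overlapped them (−0.09 ± 0.08, adjusted p = 0.701). Smarcd1 mRNA thus did not set the libraries labelled KD6 apart from their control, and differences in KD6 or in the pooled KD group are given without reference to a lower Smarcd1 mRNA. The 2 control lines also differed in it, with EV above shScr by 0.90 ± 0.10 (adjusted p = 7.48e-05, on sums over transcripts), or by 0.83 ± 0.10 without EV replicate 1 (0.000537).

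The mitosis genes were abundant and even across the 15 libraries. Summed over the 46 genes, their level was 2704 ± 21.1 CPM in EV, 2749 ± 64.1 in OE, 2603 ± 97.8 in shScr, 2696 ± 73.7 in KD4 and 2687 ± 57.6 in KD6 (mean ± SD, n = 3), and the single libraries ran from 2494 CPM (shScr replicate 3) to 2819 CPM (OE replicate 1). The highest line mean exceeded the lowest by 1.15-fold for the median member, against 1.23-fold for the median of all 13330 genes in both tables and 1.2-fold for the 10607 of them with a mean of at least 5 CPM. Only Ccnb2 exceeded 1.5-fold (1.76-fold), which is 2.17% of the members against 16.8% of all genes and 10.3% of those of at least 5 CPM. Per kilobase of coding sequence, the mean over the 15 libraries ran from 113 CPM for Mad2l1, followed by Birc5 (99.7), Cenpa (94.1) and Bub3 (80.4), to 4.82 for Melk, 4.75 for Ttk and 3.66 for Espl1.

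**Figure D2:**
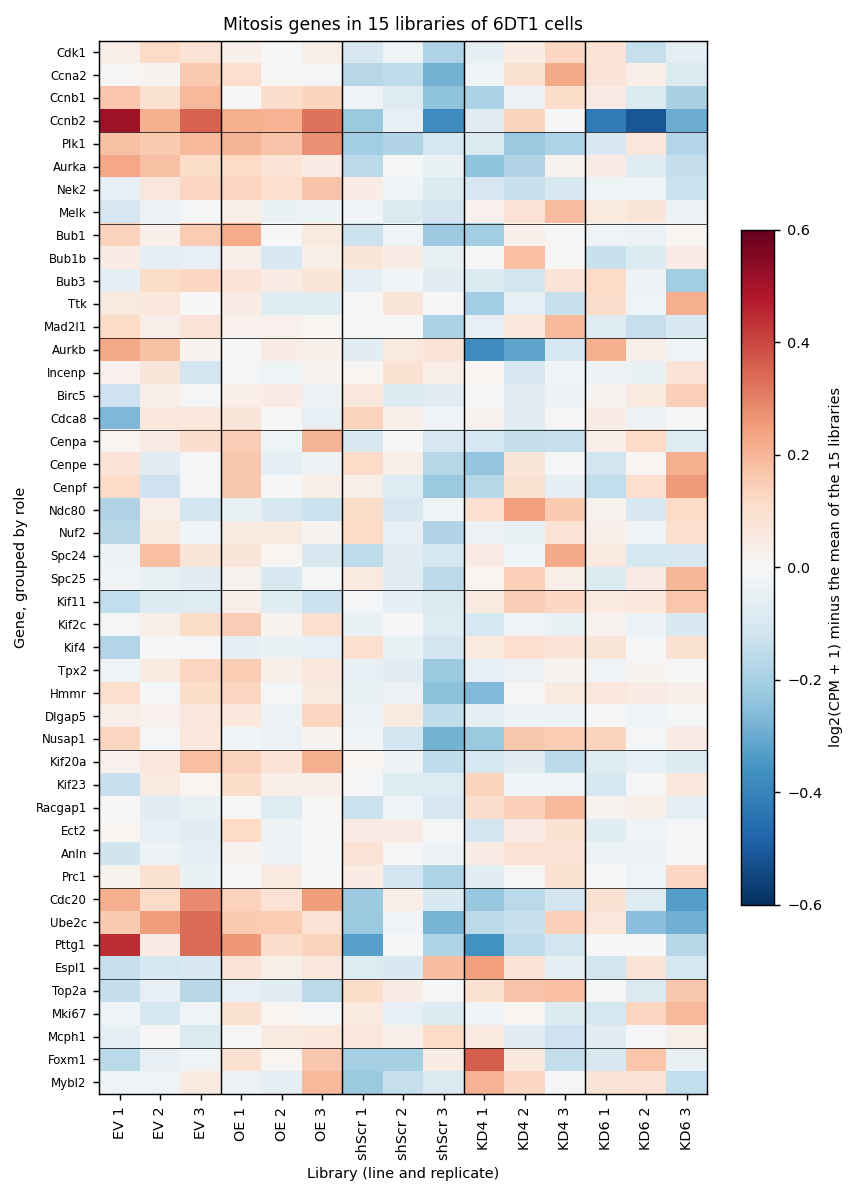
Level of the 46 mitosis genes (rows, grouped by role) in the 15 libraries (columns), as log2(CPM + 1) minus the mean over the 15 libraries, with red above and blue below that mean. Most of the map is pale. Ccnb2 has the widest range, highest in EV and lowest in KD6, and Plk1, Aurka, Cdc20, Ube2c and Pttg1 are higher in the EV and OE columns than in most hairpin columns.

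Among the cyclins and their kinase, Cdk1, the kinase that drives mitosis, had 58.7 to 72.9 CPM over the 15 libraries. Its cyclins were Ccna2 (52.8 to 75.6 CPM), which acts in S phase and at mitotic entry, Ccnb1 (29.5 to 40.3 CPM), the main mitotic cyclin, and Ccnb2 (13.5 to 28.4 CPM), a B-type cyclin found at the Golgi. All 4 had a higher mean in KD4 than in shScr and a lower mean in OE than in EV, with log2 changes of 0.08 to 0.30 and −0.11 to −0.03. Over all genes, 50.1% had a higher mean in KD4 than in shScr and 53.8% in OE than in EV. Among the other mitotic kinases were Plk1 (27.8 to 39.5 CPM), which acts at centrosomes, kinetochores and the midzone, Aurka (30.9 to 43.3 CPM), the spindle pole Aurora kinase, Nek2 (48.0 to 59.5 CPM), which promotes centrosome separation, and Melk (8.55 to 10.7 CPM), a kinase of proliferating cells.

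The spindle checkpoint genes were the kinases Bub1 (26.2 to 36.0 CPM) and Ttk, also called Mps1 (10.1 to 13.9 CPM), and the subunits of the inhibitor of the anaphase-promoting complex Bub1b (73.2 to 91.3 CPM), Bub3 (68.0 to 85.9 CPM) and Mad2l1 (60.8 to 79.6 CPM). Their log2 changes stayed between −0.07 and 0.01 in OE against EV and between −0.15 and 0.14 in KD4 against shScr. The chromosomal passenger complex, which corrects wrong kinetochore attachments, was covered by its kinase Aurkb (17.9 to 27.7 CPM), its scaffold Incenp (54.4 to 62.6 CPM), and Birc5 (38.6 to 46.7 CPM) and Cdca8 (25.6 to 34.3 CPM), which place it at centromeres. All 4 had lower means in KD4 than in shScr (−0.29 to −0.01) and higher means in the libraries labelled KD6 than in KD4 (0.02 to 0.34). None of these 4 passed the test as fitted in any of the 6 gene comparisons. Over all genes, 50.1% had a higher mean in KD4 than in shScr and 49.2% in KD6 than in KD4.

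At the kinetochore, Cenpa (34.3 to 43.9 CPM) is the histone H3 variant of the centromere, Cenpe (74.9 to 103 CPM) a kinesin that moves chromosomes to the spindle equator, and Cenpf (110 to 154 CPM) a large kinetochore protein. The other 4, Ndc80 (12.4 to 17.0 CPM), Nuf2 (28.0 to 34.8 CPM), Spc24 (8.99 to 12 CPM) and Spc25 (13.1 to 17.1 CPM), form the complex that holds microtubules. All 7 had a higher mean in the libraries labelled KD6 than in shScr, by 0.02 to 0.16, and none of those differences passed the test. The motors and spindle proteins were Kif11 (47.2 to 58.9 CPM), the kinesin that separates the spindle poles, Kif2c (22.9 to 27.5 CPM), a microtubule depolymerase, Kif4 (21.9 to 26.7 CPM), a chromosome kinesin, Tpx2 (93.1 to 121 CPM), the activator of Aurora A, and Hmmr (46.8 to 61.8 CPM), Dlgap5 (26.2 to 32.0 CPM) and Nusap1 (20.4 to 28.1 CPM), which bind spindle microtubules. These 7 also had higher means in the libraries labelled KD6 than in shScr (0.01 to 0.20), again without a call. Over all genes, 50.8% had a higher mean in KD6 than in shScr. Genes of the same role were measured in the same libraries and are not separate observations.

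The cytokinesis genes were Kif20a (57.4 to 74.4 CPM) and Kif23 (29.5 to 35.7 CPM), kinesins of the midzone, Racgap1 (70.8 to 88.6 CPM), the partner of Kif23 in centralspindlin, Ect2 (59.5 to 69.9 CPM), the exchange factor for RhoA, Anln (158 to 182 CPM), which organises the cleavage furrow, and Prc1 (104 to 129 CPM), which bundles midzone microtubules. For anaphase, Cdc20 (45.2 to 69.8 CPM) activates the anaphase-promoting complex, Ube2c (34.5 to 53.7 CPM) is its ubiquitin-conjugating enzyme, Pttg1 (14.4 to 25.9 CPM) is securin and Espl1 (21.0 to 27.7 CPM) is separase. Top2a (212 to 270 CPM) untangles DNA, Mki67 (249 to 306 CPM) coats mitotic chromosomes, and Mcph1 (49.3 to 58.4 CPM) restrains chromosome condensation. The transcription factors of the programme were Foxm1 (37 to 55.2 CPM) and Mybl2, which encodes B-Myb (14.1 to 19.4 CPM).

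Overexpression of Smarcd1 was compared with the empty vector to ask whether it moved these genes. No member was called among 46 at an adjusted p under 0.05 (limma), where 0.00741% of all genes were called, namely Smarcd1 alone. At an unadjusted p under 0.05 there were 2 members, both higher, against 13% of all genes. The median log2 change of the members was 0.01, the same as that of all genes, and 28 of the 46 (60.9%) had a higher mean in OE, against 53.8% of all genes. Without EV replicate 1 the number of members called was again 0 and their median 0.01.

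The smallest p-values belonged to Espl1 and Foxm1. Espl1, separase, stood at 21.0, 21.5 and 21.7 CPM in EV and at 24.5, 23.8 and 24.3 CPM in OE, and the lines did not overlap (log2 change 0.17 ± 0.05, adjusted p = 0.299). Foxm1 stood at 38.1, 41.2 and 42.1 CPM in EV and at 45.5, 43.1 and 47.9 CPM in OE, again without overlap (0.17 ± 0.06, adjusted p = 0.331). The next 4 were Ube2c (−0.11), Mcph1 (0.09), Mki67 (0.08) and Aurka (−0.09), with adjusted p of 0.453 to 0.513. Without EV replicate 1 the change was 0.15 ± 0.06 for Espl1 (adjusted p = 0.453) and 0.12 ± 0.06 for Foxm1 (0.533). Non-overlap of the 2 lines held for 7 members (15.2%), against 20% of all genes. The 95% interval of the change lay within 1.25-fold either way for 45 of the 46 members and within 1.5-fold for all 46.

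**Figure D3:**
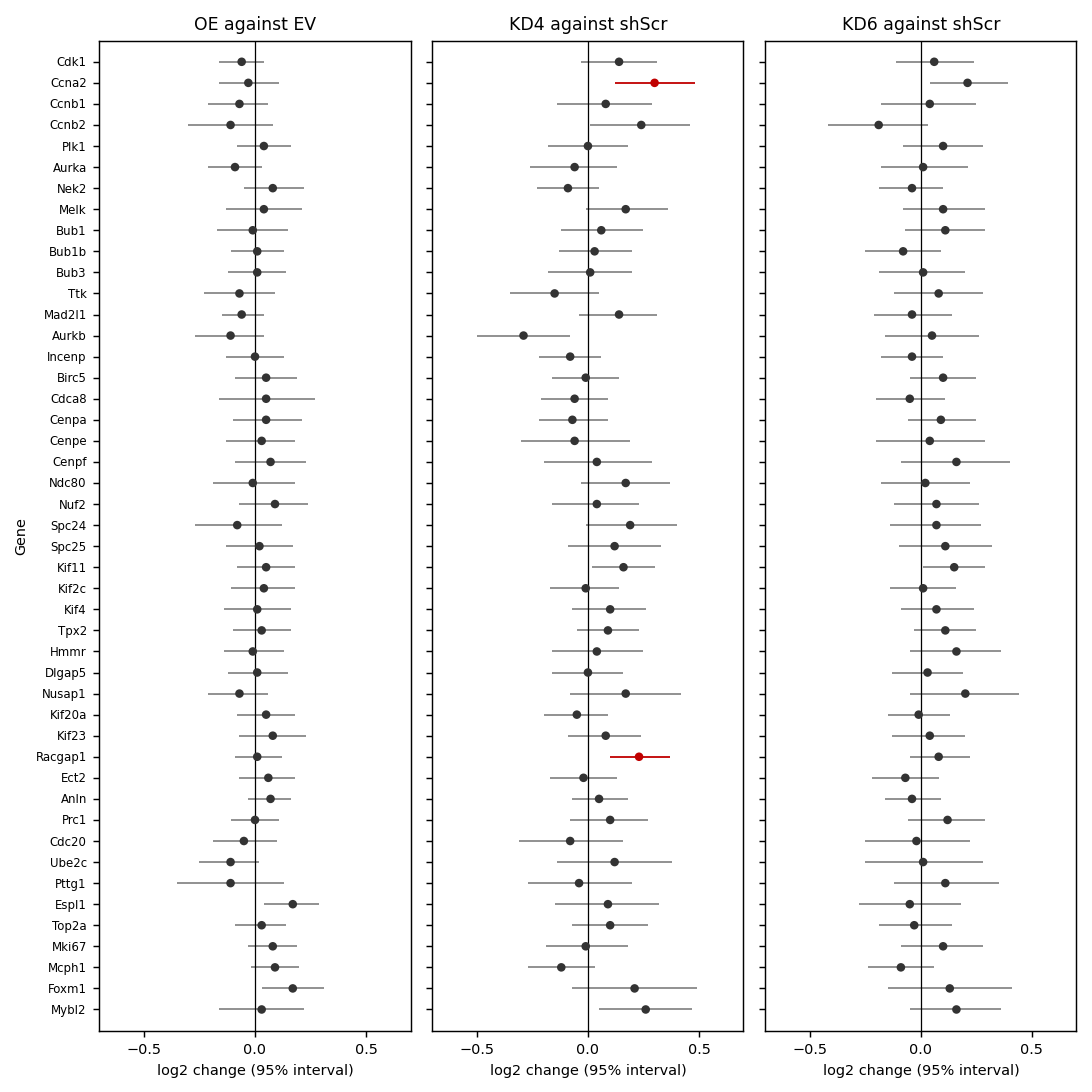
Log2 change of each of the 46 mitosis genes (points) with its 95% interval (lines) in OE against EV, KD4 against shScr and KD6 against shScr, from limma on log2(CPM + 1). Red marks an adjusted p under 0.05, which only Ccna2 and Racgap1 reached, in KD4 against shScr.

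The KD4 line, in which Smarcd1 mRNA was lower, had 2 members called against shScr, both higher, where 9.58% of all genes were called. That is 2 of 46, below the share over all genes. The median log2 change was 0.05, against 0.00 for all genes, and 30 of the 46 (65.2%) had a higher mean, against 50.1% of all genes. The intervals of 33 members lay within 1.25-fold either way and those of all 46 within 1.5-fold.

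Ccna2 stood at 57.3, 57.9 and 52.8 CPM in shScr and at 63.6, 68.8 and 75.6 CPM in KD4. Every KD4 library lay above every shScr library (log2 change 0.30 ± 0.08, 1.23-fold, adjusted p = 0.0405). Racgap1 stood at 70.8, 76.0 and 72.1 CPM in shScr and at 83.3, 85.5 and 88.6 CPM in KD4, also without overlap (0.23 ± 0.06, 1.17-fold, adjusted p = 0.0385). Both calls were lost when any of shScr replicates 1, 2 and 3, KD4 replicates 2 and 3 and KD6 replicate 2 was left out (adjusted p from 0.0642 to 0.13 for Ccna2 and from 0.0654 to 0.125 for Racgap1), the last because the fit shares its spread with KD6. They were also lost without the intensity trend (0.0593 and 0.0642), and that of Ccna2 with quantile normalization (0.0535).

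Aurkb stood at 22.5, 24.6 and 24.9 CPM in shScr and at 17.9, 18.7 and 21.8 CPM in KD4, with no overlap and a log2 change of −0.29 ± 0.10 that missed the threshold (adjusted p = 0.0876). It passed with quantile normalization (adjusted p = 0.0476) and without KD4 replicate 3 (0.0461), so that quantile normalization called 1 member higher and 1 lower. The next 3 were Mybl2 (0.26 ± 0.09, adjusted p = 0.118), Kif11 (0.16 ± 0.06, 0.159) and Ccnb2 (0.24 ± 0.10, 0.185). Mybl2 stood at 14.1, 15 and 15.6 CPM in shScr and at 19.4, 18.2 and 16.5 CPM in KD4. All KD4 libraries were above all shScr libraries for Mybl2, and the same held for Kif11, with 52.1, 50.3 and 49.2 CPM in shScr and 54.3, 58.0 and 57.1 CPM in KD4. Non-overlap of KD4 and shScr held for 10 members (21.7%), against 29.5% of all genes.

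In the libraries labelled KD6 no member was called against shScr, where 2.91% of all genes were called. At an unadjusted p under 0.05 there were 2 members, both higher, against 15.3% of all genes. The median was 0.06 against 0.00 for all genes, and 33 of the 46 (71.7%) had a higher mean, against 50.8% of all genes. Ccna2 again had the smallest p-value, at 68.2, 66.3 and 60.7 CPM in KD6, above every shScr library (0.21 ± 0.08, adjusted p = 0.226). Kif11 followed at 54.5, 54.8 and 58.9 CPM (0.15 ± 0.06, adjusted p = 0.305), and then Ccnb2 (−0.19), Tpx2 (0.11), Nusap1 (0.20) and Hmmr (0.16), with adjusted p of 0.413 to 0.474. The KD4 and KD6 comparisons share the shScr libraries, so that the same genes leading in both are not separate observations.

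With the 6 KD4 and KD6 libraries taken as 1 group, no member was called against shScr, where 2.66% of all genes were called. The spread in this fit holds the difference between the 2 hairpin lines as well as that between passages. At an unadjusted p under 0.05 there were 4 members, all higher, against 17.3% of all genes. These were Ccna2 (0.26 ± 0.07, adjusted p = 0.0948), Kif11 (0.15 ± 0.06, 0.194), Racgap1 (0.16 ± 0.07, 0.245) and Mybl2 (0.21 ± 0.09, 0.247), followed by Nusap1 (0.18 ± 0.10, 0.369) and Melk (0.14 ± 0.08, 0.391). Ccna2 ranged from 60.7 to 75.6 CPM with a median of 67.3 over the 6 libraries, and Kif11 from 54.3 to 58.9 CPM with a median of 55.9. Neither range reached into the shScr libraries, and these were the only 2 members without overlap (4.35%), against 10.8% of all genes. The median of the members was 0.05 against 0.00 for all genes.

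In shScr replicate 3, the library with the lowest sum, only 9 of the 46 members (19.6%) lay above their line mean, against 52.9% of all genes, with a median deviation of −0.05 on the log2 scale. Without it the median log2 change of the members was 0.01 in KD4, 0.03 in KD6 and 0.02 in the pooled KD group, in place of 0.05, 0.06 and 0.05. At the other end, 33 of the 46 (71.7%) lay above the line mean in OE replicate 1, against 55.8% of all genes. In OE replicate 2, 11 members (23.9%) did so, against 37.6% of all genes, and in KD4 replicate 1, 13 (28.3%), against 45.7%. Over pairs of members, the median correlation of the deviations from the line means was 0.16 across the 15 libraries, where the genes of a library share its depth and its culture.

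The 2 hairpin lines were then compared with each other, since they carry different hairpins against the same gene. Here 1 member was called, where 4.91% of all genes were called. Ccnb2 fell in KD6 relative to KD4, with 18.7, 21.7 and 19.6 CPM in KD4 and 14.4, 13.5 and 15.8 CPM in KD6 (−0.43 ± 0.10, 1.35-fold, adjusted p = 0.0381). The shScr libraries lay between and overlapped both, at 16.7, 19.0 and 14.9 CPM. The call was lost without shScr replicate 1 or without any 1 of the KD4 and KD6 replicates (adjusted p from 0.0537 to 0.153). Aurkb stood at 27.5, 24.2 and 23.1 CPM in KD6, above all KD4 libraries (0.34 ± 0.10, adjusted p = 0.0734), and passed with quantile normalization (0.0446) and without KD4 replicate 3 (0.0409). The next 4 were Ttk (0.23), Racgap1 (−0.15), Cenpa (0.16) and Mad2l1 (−0.17), with adjusted p of 0.197 to 0.288. Non-overlap of the hairpin lines held for 9 members (19.6%), against 21.6% of all genes.

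**Figure D4:**
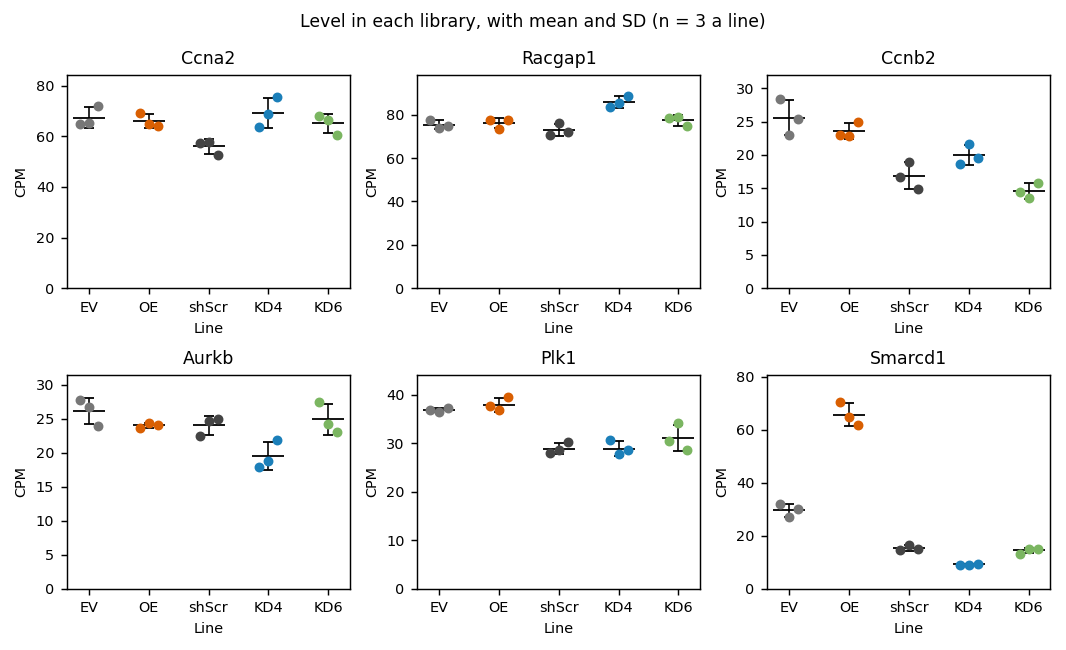
CPM of Ccna2, Racgap1, Ccnb2, Aurkb, Plk1 and Smarcd1 in each of the 15 libraries (points), with the mean and SD of each line (bars, n = 3). Ccna2 is lowest in shScr, Racgap1 highest in KD4, Ccnb2 and Plk1 higher in EV and OE than in the hairpin lines, and Smarcd1 lowest in KD4, with the libraries labelled KD6 overlapping shScr.

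The control lines were compared as well. On sums over transcripts, EV against shScr gave 7 members called (15.2%), all higher in EV, where 15.8% of all genes were called, so the share was near that over all genes. The sums did not follow the gene values equally in both lines. For Prc1 the mean sum was 116 CPM beside a gene value of 120 CPM in EV, and 88.3 beside 112 CPM in shScr. For Ccnb2 the sum and the gene value were equal, at 25.6 CPM in EV and 16.9 CPM in shScr. The median log2 change of the members was 0.12, against 0.02 for all genes, and 34 of the 46 (73.9%) were higher, against 52.4% of all genes. The lines differ in vector, insert and drug (blasticidin or puromycin), and Smarcd1 mRNA was higher in EV (0.90 ± 0.10, limma, adjusted p = 7.48e-05). These differences cannot be told apart. Neither line carries the Smarcd1 cDNA or a hairpin against Smarcd1. With quantile normalization the median of the members was 0.07, on gene values it was 0.08, and without EV replicate 1 it was 0.13.

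Plk1 had transcript sums of 37.4, 35.2 and 37.1 CPM in EV and 25.8, 28.4 and 26.5 CPM in shScr (0.43 ± 0.07, 1.35-fold, adjusted p = 0.00153). Ccnb2 had 28.4, 23.0 and 25.4 CPM against 16.7, 19.0 and 15 CPM (0.58 ± 0.10, 1.49-fold, adjusted p = 0.0023). Ccna2 had 61.4, 54.6 and 62.3 CPM against 47.5, 45.1 and 40.1 CPM (0.42 ± 0.09, 1.34-fold, adjusted p = 0.00709). In none of these 3 did the lines overlap, which held for 25 members (54.3%) against 38.9% of all genes. All 3 were called under each of the 22 alternatives run for them. The other 4 were Prc1 (0.39 ± 0.09, adjusted p = 0.0149), Ube2c (0.42 ± 0.11, 0.0173), Kif20a (0.42 ± 0.11, 0.0185) and Spc24 (0.40 ± 0.11, 0.032).

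Those 4 depended on single libraries, and Prc1, Kif20a and Spc24 also on the use of sums over transcripts in place of gene values. Without EV replicate 1, the library that stood apart, 4 members were called, and Prc1 (adjusted p = 0.0595), Kif20a (0.0773) and Spc24 (0.0816) were lost. Without shScr replicate 3, 3 members were called, and all 4 were lost (0.0597 to 0.117). Ube2c was also lost without EV replicate 3 or shScr replicate 1, Kif20a without shScr replicate 1, and Spc24 without EV replicate 3 or shScr replicate 2. On the gene values of the 2 gene tables, an alternative added after seeing the data, 8 members were called (17.4%), where 18.5% of all genes were called. These were Ccnb2 (0.58), Plk1 (0.34), Pttg1 (0.45), Ube2c (0.42), Ccna2 (0.26), Aurka (0.24), Cdc20 (0.29) and Ccnb1 (0.27), and not Prc1 (0.10), Kif20a (0.15) or Spc24 (0.19).

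OE shared the vector and the drug with EV, so the 6 vector libraries could be set beside the 9 hairpin libraries in gene values. All 6 lay above all 9 for 5 members, Aurka, Ccnb2, Kif20a, Plk1 and Pttg1, where 2.52% of all genes did so. The reverse held for 0 members, and its share over all genes is not given. Without EV replicate 1, an alternative added after seeing the data, 7 members lay above, with Nek2 and Tpx2 added, where 2.81% of all genes did so. In that alternative 0 members lay below, where 2.64% of all genes did so. Plk1 stood at 36.4 to 39.5 CPM in the vector libraries and at 27.8 to 34.1 CPM in the hairpin libraries. Mitochondrial transcripts took 5.71% to 6.71% of the gene values in the vector libraries and 4.47% to 5.64% in the hairpin libraries. Of 13 listed mitochondrial RNAs, 7 were called higher in EV than in shScr (53.8%, against 15.8% of all genes called). With EV replicate 1 or shScr replicate 3 left out, 2 of the 13 were called. Their part in the result was not tested.

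Transcripts were examined next, since Smarcd1 level was studied for its bearing on splicing. No member transcript was called in OE against EV, where 0% of all transcripts were called, with 4 of the 117 (3.42%) at an unadjusted p under 0.05 against 9.65% of all transcripts (limma). None was called in KD4 against shScr, where 1.14% of all transcripts were called (8 of 117 unadjusted, 6.84% against 14.9%), and none in KD6 against shScr, where 0.142% were called (5 of 117 unadjusted, 4.27% against 10.2%). The transcripts with the smallest p-values were, apart from those of Mcph1, ENSMUST00000173824 of Prc1 in OE (−0.30 ± 0.07), ENSMUST00000029270 of Ccna2 (0.34 ± 0.11), ENSMUST00000171702 of Racgap1 (0.52 ± 0.18) and ENSMUST00000018005 of Mybl2 (0.27 ± 0.11) in KD4, and ENSMUST00000188445 of Ttk (0.42 ± 0.14) and ENSMUST00000029270 of Ccna2 (0.29 ± 0.11) in KD6. Their adjusted p lay between 0.188 and 0.441.

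Mcph1, which encodes microcephalin, was the member whose transcripts moved against each other. In OE against EV its transcript ENSMUST00000146819 stood at 4.13, 4.12 and 3.89 CPM in EV and at 1.85, 2.69 and 2.07 CPM in OE (−0.66 ± 0.14, adjusted p = 0.441). ENSMUST00000153133 stood at 1.49, 1.72 and 1.82 CPM in EV and at 2.67, 2.43 and 2.72 CPM in OE (0.43 ± 0.12, adjusted p = 0.445), and ENSMUST00000124910 at 1.76, 1.86 and 1.86 CPM in EV and at 2.94, 2.23 and 2.77 CPM in OE (0.36 ± 0.13, adjusted p = 0.485). All 3 separated the lines, the first downwards and the others upwards. The main transcript, ENSMUST00000039412, held 85.5% ± 0.249 of the Mcph1 signal in EV and 86.2% ± 0.373 in OE (SD, n = 3), and ENSMUST00000146819 held 7.8% ± 0.221 and 4.07% ± 0.75.

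A test of transcript shares within genes (diffSplice in limma, Simes p per gene), added after seeing the data, called Mcph1 in OE against EV, alone among 30 members with more than 1 listed transcript (adjusted p = 0.000306), where 1.37% of 7077 genes were called. This test pools the spread over the transcripts of a gene as if they were separate observations. They divide the same reads of the same libraries, so its p-values may be too small. Unadjusted, it gave 4.32e-08 for Mcph1, where limma gave 0.00198 for ENSMUST00000146819 alone. The adjusted p was 0.00677 without EV replicate 1 and from 5.39e-05 to 0.0146 over the 8 alternatives run. The same gene gave 0.119 in KD4 against shScr and 0.394 in KD6 against shScr. ENSMUST00000124910 stood at 3.88, 4.06 and 5.40 CPM in shScr, at 2.75, 2.12 and 1.17 CPM in KD4 and at 1.69, 2.59 and 2.84 CPM in KD6, and neither hairpin line overlapped shScr (−0.88 ± 0.23, adjusted p = 0.117, and −0.70 ± 0.23, adjusted p = 0.321). In shScr the shares differed from those in EV, with 78.7% ± 2.12 in the main transcript. These minor transcripts are low, their values are estimates that divide shared reads, and their read counts are unknown.

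**Figure D5:**
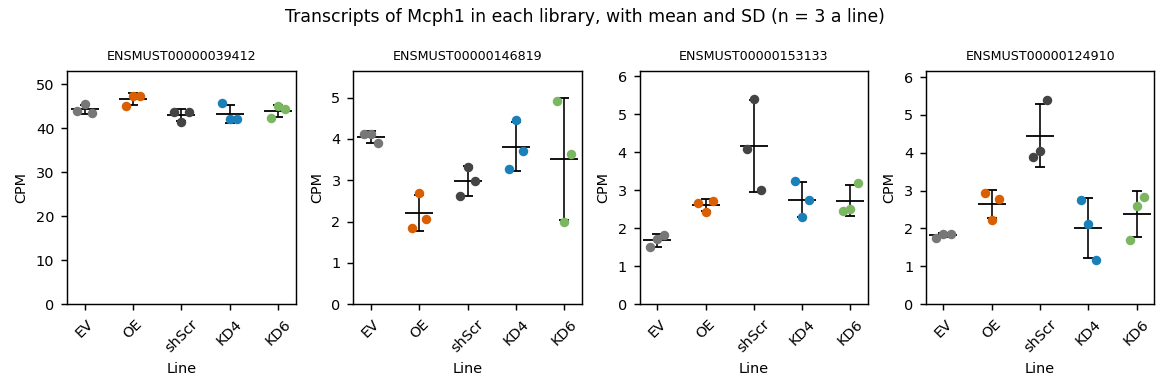
CPM of the 4 listed transcripts of Mcph1 in each of the 15 libraries (points) with the mean and SD of each line (bars, n = 3). The main transcript ENSMUST00000039412 is level across the lines, while ENSMUST00000146819 is lower in OE than in EV and ENSMUST00000124910 and ENSMUST00000153133 are higher in OE than in EV.

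Other genes of mitosis, in 8 lists of condensin, cohesin, subunits of the anaphase-promoting complex, inner and outer kinetochore, mitotic entry, further spindle genes and the MuvB/DREAM factors, comprised 127 genes. Of these, 126 were measured in the gene tables. In OE against EV 0 were called (limma) and their median log2 change was 0.01. At an unadjusted p under 0.05 there were 14 (11.1%, against 13% of all genes). In KD4 against shScr 4 were higher and 1 lower (3.97% called, against 9.58% of all genes), with a median of 0.05. In KD6 against shScr 0 were called, where 2.91% of all genes were called, with a median of 0.03. Unadjusted there were 13 (10.3%, against 15.3% of all genes). Between the hairpin lines 3 were higher and 3 lower in KD6 (4.76% called, against 4.91% of all genes). Leaving out 1 library in turn left 2 to 5 called in either comparison. Ncaph2, a subunit of condensin II, rose in KD4 (0.45 ± 0.06, adjusted p = 0.00148), and Anapc1, the scaffold of the anaphase-promoting complex, fell (−0.51 ± 0.06, adjusted p = 0.000482). Both calls held in all 15 alternatives, and both genes differed between the hairpin lines, with KD6 below KD4 for Ncaph2 (−0.44 ± 0.06, adjusted p = 0.00292) and above it for Anapc1 (0.40 ± 0.06, 0.00269). The call of Rbl1, a pocket protein of the DREAM complex, was lost without KD4 replicate 2 (adjusted p = 0.0536), and those of Cdkn3 and Mad1l1 without any 1 of the shScr and KD4 replicates or KD6 replicate 2, and for Mad1l1 KD6 replicate 3 (0.0523 to 0.135). Between the hairpin lines, the calls of Cdc25b, a phosphatase of mitotic entry (0.37 ± 0.08, adjusted p = 0.0289), and of the DREAM-linked factors E2f4 (−0.33 ± 0.08, 0.0354) and E2f5 (0.40 ± 0.10, 0.0367) held in 9, 6 and 6 of 15 alternatives. Cdc25b was lost without KD4 replicate 2 or 3 or any KD6 replicate, and E2f4 and E2f5 without shScr replicate 2 or any KD4 or KD6 replicate (0.052 to 0.122). In EV against shScr 9 were higher and 6 lower of 123 measured (12.2%, against 15.8% of all genes), with a median of 0.05. These 15 calls became 7 without EV replicate 1 and 8 without shScr replicate 3. The call of Mlf1ip, a kinetochore gene, held in 6 of 21 alternatives, and those of Ncaph, a condensin subunit, and Lin9, of the MuvB complex, in 15 of 22.

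Of 23 measured genes of the G1/S transition, 2 were higher in KD4 than in shScr (8.7%, against 9.58% of all genes, median of the list 0.16) and 7 in EV than in shScr (30.4%, against 15.8%, median 0.20), with none lower and none called in the other 4 comparisons. Both KD4 calls were subunits of the replicative helicase, Mcm4 (0.24 ± 0.06, adjusted p = 0.0323) and Mcm5 (0.26 ± 0.07, 0.0462), and they held in 7 and 4 of 15 alternatives. Both were lost without any 1 of the shScr replicates, KD4 replicates 2 and 3 or KD6 replicate 2, and Mcm5 also without KD4 replicate 1 or KD6 replicate 3 (0.0553 to 0.158). The 7 calls in EV became 3 without EV replicate 1 or without shScr replicate 3. Mcm5 led the EV comparison (0.39 ± 0.08, adjusted p = 0.00502) and was called under all 22 alternatives. Among 8 inhibitors of cyclin-dependent kinases and p53 targets, Cdkn2c, which encodes p18, rose in KD4 (0.50 ± 0.08, adjusted p = 0.00357) and so did Gadd45a, a DNA damage response gene (0.69 ± 0.12, 0.00552), with Mdm2, the ubiquitin ligase of p53, lower (−0.38 ± 0.08, 0.0104), a gene named after its value was seen. In EV against shScr 4 of these 8 were higher, or 2 without EV replicate 1, among them Mdm2 (0.50 ± 0.07, 0.000511), and Cdkn1b, which encodes p27, was lower (−0.29 ± 0.06, 0.0056). Calls thus covered 37.5% of the 8 in KD4, against 9.58% of all genes, and 62.5% in EV, against 15.8%. The calls of Cdkn2c and Gadd45a in KD4 and of Mdm2 and Cdkn1b in EV held in every alternative run for them.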

How the data were processed

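RNA-seq of 15 libraries was used. The authors deposited CPM values per gene, in 1 table for OE and EV and 1 for shScr, KD4 and KD6, and per transcript in a table of all libraries. Counting and filtering were theirs, no listed feature had a geometric mean below 1.0001 CPM, and counts were not analysed here, so depth and counting precision are unknown. The submitters' processing notes name STAR 2.7.8a, and the notes and the study's methods name different builds, so no coordinates of the files are given. Beside these, 15 columns of per-sample values in the table of transcripts matched no sample and were not used. Columns of the authors' own fold changes and p-values were not used.

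Samples were grouped by their labels. Values were tested as log2(CPM + 1), without a further filter, in limma 3.58.1 (R 4.3.3) with an intensity trend across all genes or transcripts and Benjamini-Hochberg adjustment, at an adjusted p under 0.05. OE and EV were fitted alone, the hairpin lines in 1 fit (KD against shScr with KD4 and KD6 pooled), and EV against shScr on sums over transcripts in a fit of all 15 libraries, because only the transcript table holds both. For genes with 1 listed transcript (5894), the gene value and the transcript value had a median ratio of 0.99994 to 0.99996 in each library. The ± values beside log2 changes are standard errors. P-values set a difference against the spread between passages of 1 line. In the pooled KD fit that spread also holds the difference between KD4 and KD6. The fit was tested on simulated data. Alternatives were a pseudocount of 0.1, a minimum mean of 5 CPM, quantile and median of ratios scaling, no trend, the replicate block and leaving out each library.

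Members and lists were chosen with earlier results of these data known. Named genes were Smarcd1, every member that passed or, where under 6 passed, the 6 with the smallest p as values, up to 2 genes that passed in each other list, and 4 member transcripts per comparison. Symbols came from a table of Ensembl names, with 12 list genes matched by a synonym. Coding lengths came from an older annotation, and promoters from RefSeq on GRCm38.p6. Figures were drawn with matplotlib 3.10.9.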

Additional observations from a re-analysis of the deposited data

Results flagged for a closer look

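Ccnb2 differed between the hairpin lines in a direct test, with a log2 change of −0.43 in KD6 against KD4 (limma, adjusted p = 0.0381). For 2 further members every KD4 library lay on one side of the shScr mean and every KD6 library on the other, and the difference did not pass the test: Mad2l1 (−0.17, adjusted p = 0.288) and Anln (−0.09, 0.472). The share of all genes with this pattern was not counted, so the number of members with it cannot be judged.

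Among the 6 KD4 and KD6 libraries, KD4 replicate 1 lay apart from the other 5 for Hmmr (46.8 CPM) and for Bub1 (26.4 CPM), by Dixon's test. These are 2 of 46 members tested, where chance flags about 1 in 20 groups.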

How the results depend on the processing

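Leaving out each library in turn, the number of genes called ranged from 0 to 1 in OE against EV, 92 to 397 in KD, 641 to 1309 in KD4 and 151 to 419 in KD6 against shScr, 298 to 611 in KD6 against KD4, 971 to 2401 in EV against shScr, and for transcripts 68 to 257 in KD4 and 0 to 33 in KD6. Members called ranged from 0 to 2 in KD4, 0 to 1 in KD6 against KD4 and 3 to 10 in EV against shScr, and their median log2 change from 0.00 to 0.04 in OE, 0.02 to 0.07 in KD, 0.01 to 0.08 in KD4 and 0.03 to 0.07 in KD6 against shScr, −0.01 to 0.03 in KD6 against KD4 and 0.10 to 0.15 in EV against shScr. Quantile normalization called 3 genes in OE and 2 members in KD6 against KD4 and gave a median of 0.07 in EV against shScr. Gene values gave 0.08 there, no intensity trend called 0 members in KD4, and the mean of the hairpins called 847 genes in KD.

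Deviations of same-numbered replicates had correlations from −0.33 to 0.26. These were not set against differently numbered pairs, so whether replicate numbers pair the samples was not tested. With the replicate block 114 genes were called in KD, 626 in KD4, 179 in KD6, 349 in KD6 against KD4 and 990 in EV against shScr, with 0 members in KD4 and 0 in KD6 against KD4, and 26 transcripts in KD4 and 0 in KD6. No log2 change of a named gene or transcript turned its direction in any alternative, and the cause of the changes in counts was not tested. Unknown depth limits what can be said of low transcripts.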
